A study of Mus musculus with 12 samples.

Results

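Scnn1b and Kcnd3os are ion channel transcripts that the arrays read through RefSeq non-coding probes, and they were 2 of the 4288 genes that could be named on these arrays, 2514 of which were tested. A probe belonged to one of them when the RefSeq accession in its name, without its version, is assigned to the non-coding transcript of Scnn1b or to Kcnd3os. Each gene had 1 such probe with 1 spot per array, so each value below is a single spot on 1 array. Both genes had been picked for the difference between OVA and saline spleens at day 14, and Scnn1b also for the mean difference over both days. Those differences are therefore given as descriptions without a test. The 1 difference tested here is that of Kcnd3os at day 28, which was measured on other arrays.

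Scnn1b encodes the beta subunit of ENaC, the epithelial sodium channel, which takes up sodium through the apical membrane of kidney, colon and airway epithelium together with the alpha and gamma subunits. ENaC is blocked by amiloride, and aldosterone raises its activity in the kidney. Kcnd3 encodes a Shal-type voltage-gated potassium channel subunit that carries the transient outward current of heart muscle and the A-type current of neurons. Kcnd3os is a long non-coding RNA from the strand opposite to Kcnd3, and no role is given for it here. Neither gene is a usual marker of a spleen cell type.

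The RNA came from whole spleens of female BALB/c mice that were 6 weeks old at the start. OVA mice (4 arrays at day 14 and 4 at day 28) received ovalbumin, an egg-white protein, into the peritoneum at 2 mg/kg on days 1, 3 and 5. Saline mice (2 arrays at day 14 and 2 at day 28) received the solvent, normal saline, on the same days. The labels name no adjuvant, no genetic change and no later challenge with the allergen, and they do not say whether an array held RNA of 1 mouse or of several. Where replicates were not separate animals, the p-values below measure a spread that may be technical.

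Levels are log2 processed signal minus the 75th percentile of the same array, so a level of 0 is a spot at that percentile. That percentile was 484.2 to 549.4 signal units on the OVA day 28 arrays, and 267.4 to 370.8 on the OVA day 14 and saline arrays. Between 57.5% and 80.0% of spots were well above background, and no spot was saturated. The OVA day 14 arrays shared slide 2, the OVA day 28 arrays slide 3 and all 4 saline arrays slide 1. A difference between slides and a difference between OVA and saline therefore cannot be told apart in any value below. In whole spleen, a change in the number of cells of a type and a change in RNA per cell cannot be told apart either. None of the 27 cell type markers chosen for spleen, epithelium, muscle and nerve had a named probe, so the labelled tissue was not checked by markers.

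In the GRCm38.p6 assembly Scnn1b (gene ID 20277) spans chr7:121865038-121918728 on the plus strand, and RefSeq lists 2 coding transcripts and 1 non-coding transcript for it. Whether the probe of the non-coding transcript also reads the coding mRNA was not checked. Kcnd3os (gene ID 78635) spans chr3:105448190-105452955 on the minus strand. The first 1066 bases of Kcnd3, which spans chr3:105451890-105674002 on the plus strand, overlap Kcnd3os head to head. The probe is named for the antisense RNA, and the coding mRNA of Kcnd3 had no named probe.

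The 250 bases before each start are shown because both transcripts were higher in OVA spleens, and because the sequence before Kcnd3os lies inside Kcnd3. They are RefSeq sequences of GRCm38.p6 read on the strand of the gene. Capitals mark the only matches to 5 motifs searched on both strands. The first sequence is chr7:121864788-121865037 on the plus strand and the second is chr3:105452956-105453205 on the minus strand.
Scnn1b: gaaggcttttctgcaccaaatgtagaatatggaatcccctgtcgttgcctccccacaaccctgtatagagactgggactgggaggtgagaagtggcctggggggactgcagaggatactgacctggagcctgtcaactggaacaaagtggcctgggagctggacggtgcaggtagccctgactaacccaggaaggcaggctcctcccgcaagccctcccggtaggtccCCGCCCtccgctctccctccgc
Kcnd3os: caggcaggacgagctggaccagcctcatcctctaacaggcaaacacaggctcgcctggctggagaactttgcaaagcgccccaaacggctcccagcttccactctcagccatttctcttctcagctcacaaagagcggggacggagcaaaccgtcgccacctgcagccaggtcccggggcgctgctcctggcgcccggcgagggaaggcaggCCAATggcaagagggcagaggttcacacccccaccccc
The capitals before Scnn1b are a GC box (GGGCGG, here on the other strand) whose first base lies at -22 from the start. The capitals before Kcnd3os are a CCAAT box at -38. A GC box was found in 32.7% of 32851 mouse promoters of this length and a CCAAT box in 33.8%, so each match is a common one. The other 3 motifs, which do not occur in these windows, were the TATA box (TATAAA, in 12.4% of the promoters), the NFAT core (GGAAA, in 55.6%) and the GATA motif (AGATAA, in 9.99%). GC content was 60.8% before Scnn1b and 64.4% before Kcnd3os, against a median of 52.4% over the promoters. The Scnn1b window held 7 CpG pairs and the Kcnd3os window 13, against a median of 6.0.

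Scnn1b, read through the probe of its non-coding transcript, was higher in OVA than in saline spleens on both days. At day 14 its level was -0.19, -0.28, -0.04 and -0.12 on the 4 OVA arrays, against -0.68 and -0.83 on the saline arrays. Every OVA array lay above both saline arrays. The means were -0.16 ± 0.10 in OVA spleens (SD, n = 4) and -0.76 ± 0.11 in saline spleens (SD, n = 2), a difference of 0.60 ± 0.12 (log2, SE) or 1.52-fold. At day 28 the level was 0.13, 0.11, 0.06 and -0.08 on the OVA arrays, against -0.56 and -0.26 on the saline arrays. The groups were again apart, and the gap between the lowest OVA array and the higher saline array was smaller than at day 14. The means were 0.05 ± 0.10 in OVA spleens (SD, n = 4) and -0.41 ± 0.22 in saline spleens (SD, n = 2), a difference of 0.46 ± 0.12 (log2, SE) or 1.38-fold. Leaving out the first saline array of day 28 lowered the day 28 difference to 0.31, and leaving out the second raised it to 0.62.

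Kcnd3os, the antisense transcript at the start of the potassium channel gene Kcnd3, was higher in OVA spleens at day 14. Its level there was -1.98, -2.19, -1.82 and -1.94 on the OVA arrays, against -2.63 and -2.60 on the saline arrays. The lowest OVA array lay well above both saline arrays, which were almost equal. The means were -1.99 ± 0.16 in OVA spleens (SD, n = 4) and -2.61 ± 0.02 in saline spleens (SD, n = 2), a difference of 0.63 ± 0.14 (log2, SE) or 1.55-fold. At day 28 its level was -2.12, -1.92, -1.84 and -1.94 on the OVA arrays, against -2.50 and -2.11 on the saline arrays. Here the groups overlapped, because the lowest OVA array lay just under the higher saline array.

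The test of Kcnd3os at day 28 did not pass the threshold. The means were -1.96 ± 0.12 in OVA spleens (SD, n = 4) and -2.30 ± 0.27 in saline spleens (SD, n = 2). The difference was 0.35 ± 0.14 (log2, SE) or 1.27-fold, with a 95% interval from 0.05 to 0.65. In limma the unadjusted p was 0.0261 and the p adjusted over all 72515 tested features was 0.110, above 0.05. The median difference over all features that day was -0.03, and 14.2% of features passed the threshold (7.5% as higher and 6.65% as lower in OVA). Without the first saline array of day 28 the Kcnd3os difference was 0.16, with an adjusted p of 0.602. With normexp background correction it was 0.05, with an adjusted p of 0.646. Over 25 alternatives with a limma test its adjusted p lay between 0.0735 and 0.646. The Kcnd3os difference was positive each time, but filters, the variance model and leaving out arrays of day 14 cannot move it.

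**Figure D1:**
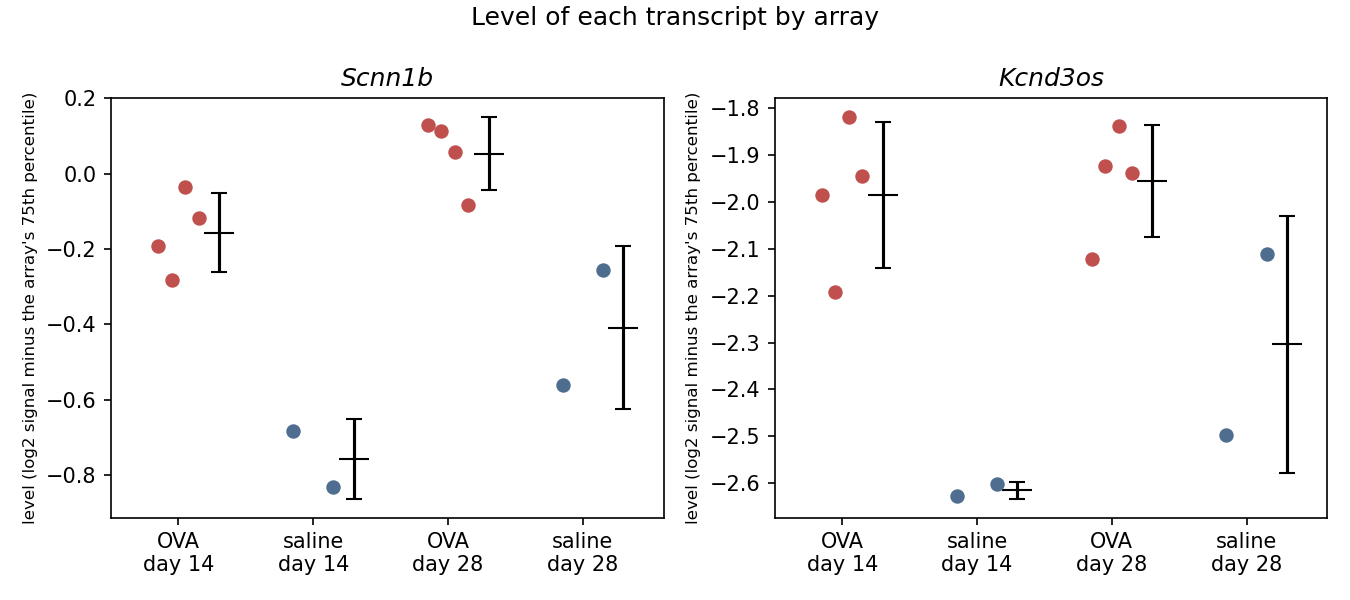
Level of Scnn1b (left) and Kcnd3os (right) on each of the 12 arrays, as log2 processed signal minus the array's 75th percentile, with OVA arrays in red and saline arrays in blue. Bars give the mean and SD of a group. OVA and saline arrays are apart on both days for Scnn1b and at day 14 for Kcnd3os, while 1 OVA array of day 28 lies at the level of the higher saline array for Kcnd3os.

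Counted by overlap, both genes had all OVA arrays above all saline arrays at day 14. Among all tested features 14.8% did so, and 22.4% were apart in either direction. At day 28 this held for Scnn1b and not for Kcnd3os, against 19.1% of all features, and 3.69% of features were higher without overlap on both days as Scnn1b was. Both genes had been chosen on the day 14 values, so nothing is read from these counts. By the limma threshold 0.0607% of all features were called at day 14 (44 features), and 0.0552% as higher in OVA (40 features). The 2 genes are not counted among these calls for the same reason. The median difference over all features was 0.03 at day 14, with the middle range of features running from -0.12 to 0.17.

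Over the 4 groups the order of mean levels was the same for both genes, with OVA day 28 at the top, then OVA day 14, saline day 28 and saline day 14. For Scnn1b, neighbours in this order touched at 2 places. The lowest OVA day 28 array (-0.08) lay under the highest OVA day 14 array (-0.04), and the lowest OVA day 14 array (-0.28) lay under the higher saline day 28 array (-0.26). For Kcnd3os the OVA groups differed by 0.03, less than the SD of either group. The lowest OVA day 14 array of Kcnd3os (-2.19) also lay under the higher saline day 28 array (-2.11). Whether the saline groups, of 2 arrays each, overlapped is not read here, because the share of all features apart in this way was not counted. Saline spleens were higher at day 28 than at day 14, by 0.35 ± 0.14 for Scnn1b and 0.31 ± 0.16 for Kcnd3os (log2, SE). In this comparison limma called 1 of the 72515 tested features. Those 2 groups lay on 1 slide. The saline day 14 values had entered the choice of both genes, so their differences here are descriptions without a test. The difference between OVA and saline at day 28 was smaller than at day 14 by 0.14 for Scnn1b and by 0.28 for Kcnd3os, with SEs of 0.17 and 0.19.

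Before scaling between arrays, the processed signal of Scnn1b was 252, 220, 277 and 265 on the OVA day 14 arrays, against 231 and 180 on the saline day 14 arrays. The groups overlapped on this scale, as 1 OVA array lay below the brighter saline array. On the day 28 arrays it was 538, 550, 503 and 518 in OVA spleens, against 221 and 265 in saline spleens. The median difference of all features at day 28 was 0.63 (log2) on this scale, and the share of features without overlap was not counted. Unscaled Kcnd3os signals were 72.7, 58.5, 80.6 and 74.8 on the OVA day 14 arrays, against 60.0 and 52.7 on the saline ones, and again 1 OVA array lay below the brighter saline array. At day 28 they were 112.9, 134.1, 135.5 and 143.3 in OVA spleens, against 57.8 and 73.3 in saline spleens. Without scaling, the day 14 differences were 0.31 for Scnn1b and 0.34 for Kcnd3os (log2), and the day 28 differences were 1.12 and 1.01.

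The scale of the whole array moved with these values. Leaving the arrays unscaled shifted the median difference of all features by -0.29 at day 14 and by 0.66 at day 28. Scaling by 8 spike-in RNAs shifted it by -0.24 at day 14. The day 14 differences were then 0.36 for Scnn1b and 0.39 for Kcnd3os. Relative to the median of all features, Scnn1b stood 0.57 higher at day 14 and 0.50 higher at day 28, and Kcnd3os 0.60 and 0.38 higher. Scaling by 1 constant per array cannot change these relative values. The spike-ins themselves were read 0.112 to 0.379 higher on OVA arrays at day 14 on the percentile scale, and between -0.407 and 0.509 at day 28. Normexp background correction, which starts from other signal columns, gave 0.41 for Scnn1b and 0.43 for Kcnd3os at day 14. Relative to the median of all features these were 0.34 and 0.36, and at day 28 the relative values under normexp were 0.58 for Scnn1b and 0.20 for Kcnd3os.

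**Figure D2:**
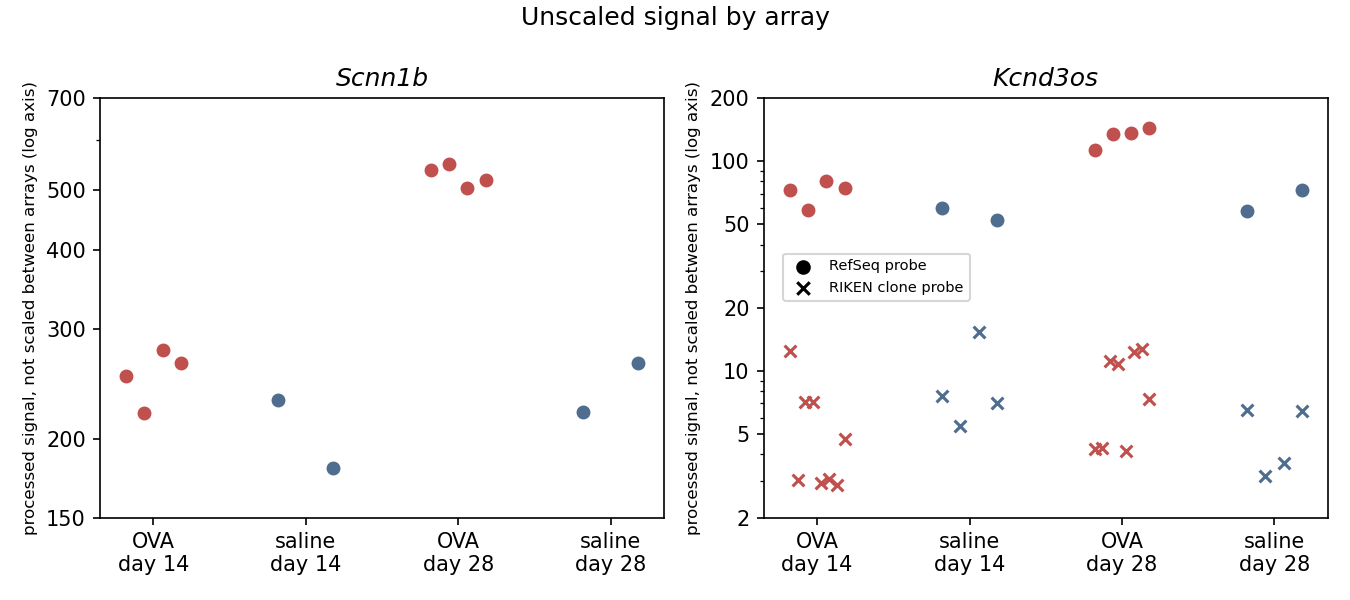
Processed signal before any scaling between arrays (log axis) for Scnn1b (left) and Kcnd3os (right), with OVA arrays in red and saline arrays in blue. Circles are the RefSeq probes and crosses the 2 spots of the RIKEN clone probe of Kcnd3os on each array. The OVA day 28 arrays are the brightest for both RefSeq probes, 1 OVA day 14 array lies among the saline arrays of that day for both genes, and the clone probe reads at most 15.3.

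Kcnd3os had a further probe, named for the RIKEN clone from which its older symbol comes. It had 2 spots per array, and none of its 24 readings was well above background. Its signal was 2.86 to 15.3, while that of the RefSeq probe was 52.7 to 143. The probes therefore disagree on whether Kcnd3os is detected, and every Kcnd3os value here rests on the RefSeq probe. That probe was well above background on all 12 arrays, with a median signal between 3.94 and 7.87 times that of the local background. Scnn1b had no other probe, and its spot was 10.5 to 26.3 times the local background on the 12 arrays.

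With 1 spot per array, the error of the spot itself was read from other probes. Probes with 2 spots and a level within 0.25 of Scnn1b had a median difference between their spots of 0.0685 to 0.102 (log2) on the 12 arrays. Near the level of Kcnd3os it was 0.109 to 0.178. As an SD, the error of 1 spot was 0.0794 to 0.458 near Scnn1b on the 12 arrays (mean 0.136) and 0.126 to 0.798 near Kcnd3os (mean 0.220). These values hold the spot error alone, without the spread between spleens. The spots around each probe, within 10 rows and 5 columns, were also compared between the arrays. The 132 neighbours of Scnn1b had a median OVA difference of 0.07 at day 14 and of -0.04 at day 28. The 130 neighbours of Kcnd3os had 0.10 and -0.04. On single arrays the neighbours departed from their usual level by -0.12 to 0.06 around Scnn1b and by -0.09 to 0.12 around Kcnd3os. At day 28 the neighbours' values lay at the median of all features (-0.03). The part of the array position in the members' differences was not tested.

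Profiles over the 12 arrays were compared after each was centred on its own mean. Predicted genes (Gm, LOC) and clone or Rik names were left out, so that of the 2514 named genes tested 164 were candidates for each gene. By the root mean square difference, Scnn1b and Kcnd3os were the nearest of these candidates to each other, at 0.128 (log2). The median distance of the candidates was 0.385 from Scnn1b and 0.362 from Kcnd3os. Both genes had been picked on the same day 14 difference, so this likeness is a description. Next to Scnn1b came Mir22hg, the host gene of miR-22, and Mphosph9, which encodes a phosphoprotein of mitosis and the centriole, both at 0.18, and then Emx2os at 0.186, an antisense RNA of the homeobox gene Emx2. Next to Kcnd3os came Mir22hg at 0.154 and then the pseudogene Kif4-ps and Mphosph9, both at 0.195.

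Of the genes placed within 300 kb, 16 around Scnn1b and 5 around Kcnd3os, 1 had a tested probe. Scnn1g, the ENaC gamma subunit gene 96556 bases from Scnn1b, and Kcnd3 had no named probe. The tested one was 4933432K03Rik, a long non-coding RNA 275202 bases from Scnn1b. Its mean level was -2.87 in OVA and -3.09 in saline spleens at day 14, and -3.61 in OVA and -3.11 in saline spleens at day 28. The differences were 0.21 ± 0.23 (SE; limma adjusted p = 0.719) at day 14 and -0.50 ± 0.23 (adjusted p = 0.176) at day 28. Neither passed the threshold, and at day 28 the value had the opposite sign to that of Scnn1b.

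Other non-coding transcripts at ion channel loci had differences of both signs on each day. The list held 80 genes, those with a channel gene's own symbol or with a channel gene as the nearest protein-coding gene within 100 kb. Besides Scnn1b and Kcnd3os, 41 were tested, of 78 with a probe, and none of them was itself a channel gene or carried an opposite-strand (os) symbol. One, Kcnq1ot1, is known as an antisense transcript of the channel gene Kcnq1. At day 14, 0 of 41 passed the limma threshold, against 0.0607% of all features. An unadjusted limma p under 0.05 was found for 4 of 41, against 10324 of all 72515 features. Their median difference was 0.07 (range -0.57 to 0.40) and 29 of 41 (70.7%) were positive, where the median of all features was 0.03 and 56.2% were positive. At day 28, 4 of 41 (9.76%) passed, 3 higher and 1 lower in OVA, against 14.2% of all features. Their median was 0.02 (range -0.74 to 2.09) and 22 of 41 (53.7%) were positive, where all features had a median of -0.03 and 45.9% positive.

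By channel family the medians lay between -0.16 and 0.23 at day 14 and between -0.19 and 0.17 at day 28. At potassium channel loci, the family of Kcnd3, 9 of 12 transcripts had a positive difference at day 14 and 6 of 12 at day 28, with medians of 0.07 and -0.01. At voltage-gated calcium channel loci 7 of 8 were positive at day 14 and 4 of 8 at day 28, with medians of 0.23 and 0.01. At ligand-gated receptor loci (glutamate, GABA, glycine, acetylcholine and serotonin) 7 of 9 were positive on each day, with medians of 0.08 and 0.12. The 3 transcripts at TRP channel loci had a median of -0.16 at day 14, with 1 positive, and of -0.19 at day 28, with 0 positive. At chloride and volume-regulated channel loci 4 of 6 were positive at day 14 and 3 of 6 at day 28, with medians of 0.08 and -0.06. At loci of calcium release channels 1 of 3 was positive at day 14 and 2 of 3 at day 28, with medians of -0.005 and 0.17. The calcium channel median at day 14 lay above the middle range of all features and the TRP median at day 14 below it, and no family was tested as a set. No transcript near another sodium channel gene was tested.

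The 4 called transcripts at day 28 overlap genes of channels or channel subunits, and whether their probes also read those genes was not checked. Gm34031 overlaps Kcnmb2, which encodes a beta subunit of the large-conductance calcium-activated potassium channel. Its level was 0.14, 0.15, 0.19 and 0.33 on the OVA arrays, against -0.89 and -0.46 on the saline arrays. It rose by 0.88 ± 0.12 (log2, SE; 1.83-fold; limma adjusted p = 0.00203), and at day 14 its difference was 0.03. Its call held under all 25 alternatives.

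Gm38898 overlaps Ano2, which encodes a calcium-activated chloride channel. It had 0.07, 0.19, 0.24 and 0.08 on the OVA day 28 arrays, against -0.31 and -0.34 on the saline arrays. It rose by 0.47 ± 0.11 (1.38-fold; limma adjusted p = 0.0199), a size close to that of Scnn1b, and at day 14 its difference was 0.40 with an adjusted p of 0.175. The call was lost under 5 of 25 alternatives, among them leaving out either saline array of day 28 (adjusted p = 0.0874 without the first and 0.108 without the second).

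Gm35566 overlaps Cacna1d, which encodes an L-type calcium channel subunit, and it was the transcript that fell. Its level was -1.44, -1.43, -1.37 and -1.47 on the OVA day 28 arrays, against -1.04 and -1.14 on the saline arrays. The difference was -0.34 ± 0.10 (limma adjusted p = 0.042), and the call was lost under 15 of 25 alternatives, with adjusted p up to 0.208.

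Gm32741 overlaps Cacnb2, which encodes a beta subunit of voltage-gated calcium channels. It was well above background on the 4 OVA day 28 arrays and on no other array. It was thus tested only through the group where it is high, and its call, 1 of the 4, has to be read with that. Its measured mean was -3.52 in OVA and -5.61 in saline spleens at day 28. The limma adjusted p of that measured difference was 0.00527, and nothing is read from it, as the transcript was tested only through the high group. On the processed signal, set against the lowest signal well above background on each saline array, Gm32741 was at least 2.25-fold higher in OVA spleens. This bound had no test of its own, and it holds for the processed signal alone. Under normexp the difference of Gm32741 was 0.08 (log2) and the call was lost, with a limma adjusted p of 0.395.

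Kcnq1ot1 and Clca4c-ps were picked for naming after their values were seen. Kcnq1ot1, the imprinted antisense RNA at the potassium channel gene Kcnq1, differed by -0.25 at day 14 and by -0.46 at day 28 (limma adjusted p = 0.254 at day 28). The pseudogene Clca4c-ps of the Clca family differed by -0.74 at day 28 (adjusted p = 0.387). Both passed the limma threshold at day 28 under normexp, with adjusted p of 0.0299 for Kcnq1ot1 and 0.0166 for Clca4c-ps. That setting called 27651 of 72515 features at day 28, 22.9% of them higher in OVA. It also called 18 of the ion channel list, so nothing is read from these calls.

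**Figure D3:**
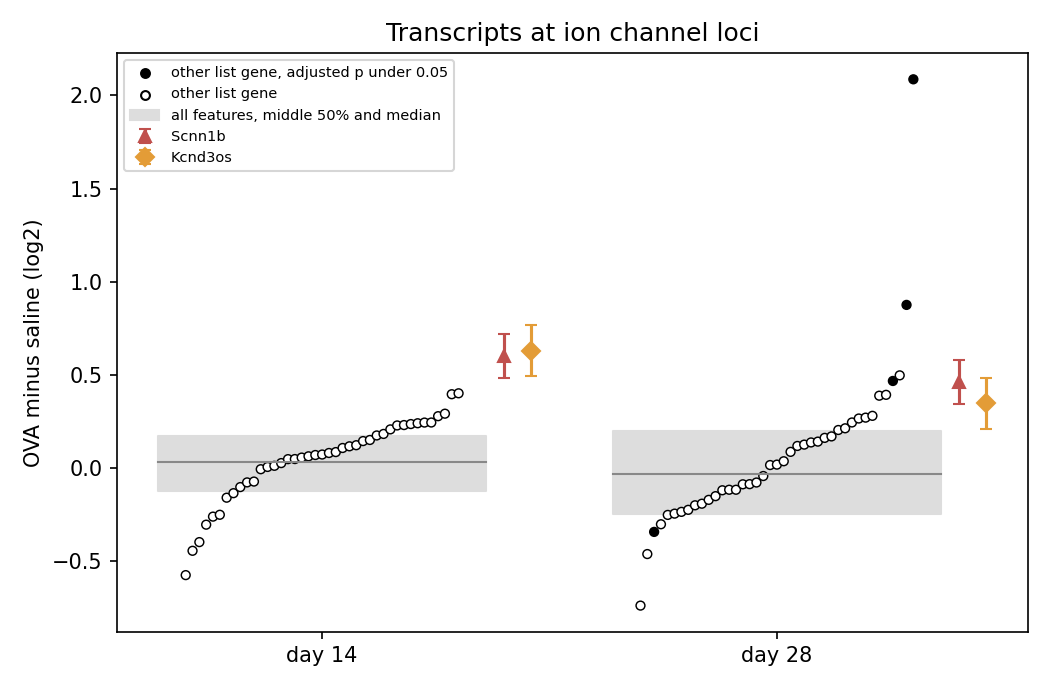
Difference between OVA and saline spleens (log2) at day 14 and day 28 for the 41 other tested transcripts at ion channel loci, in order of size, and for Scnn1b and Kcnd3os with their SE. Filled circles passed an adjusted p of 0.05, and the grey band and line give the middle 50% and the median of all tested features. Scnn1b and Kcnd3os, picked for their day 14 difference, lie above the highest of the others (0.40) at day 14 and within their range at day 28.

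**Figure D4:**
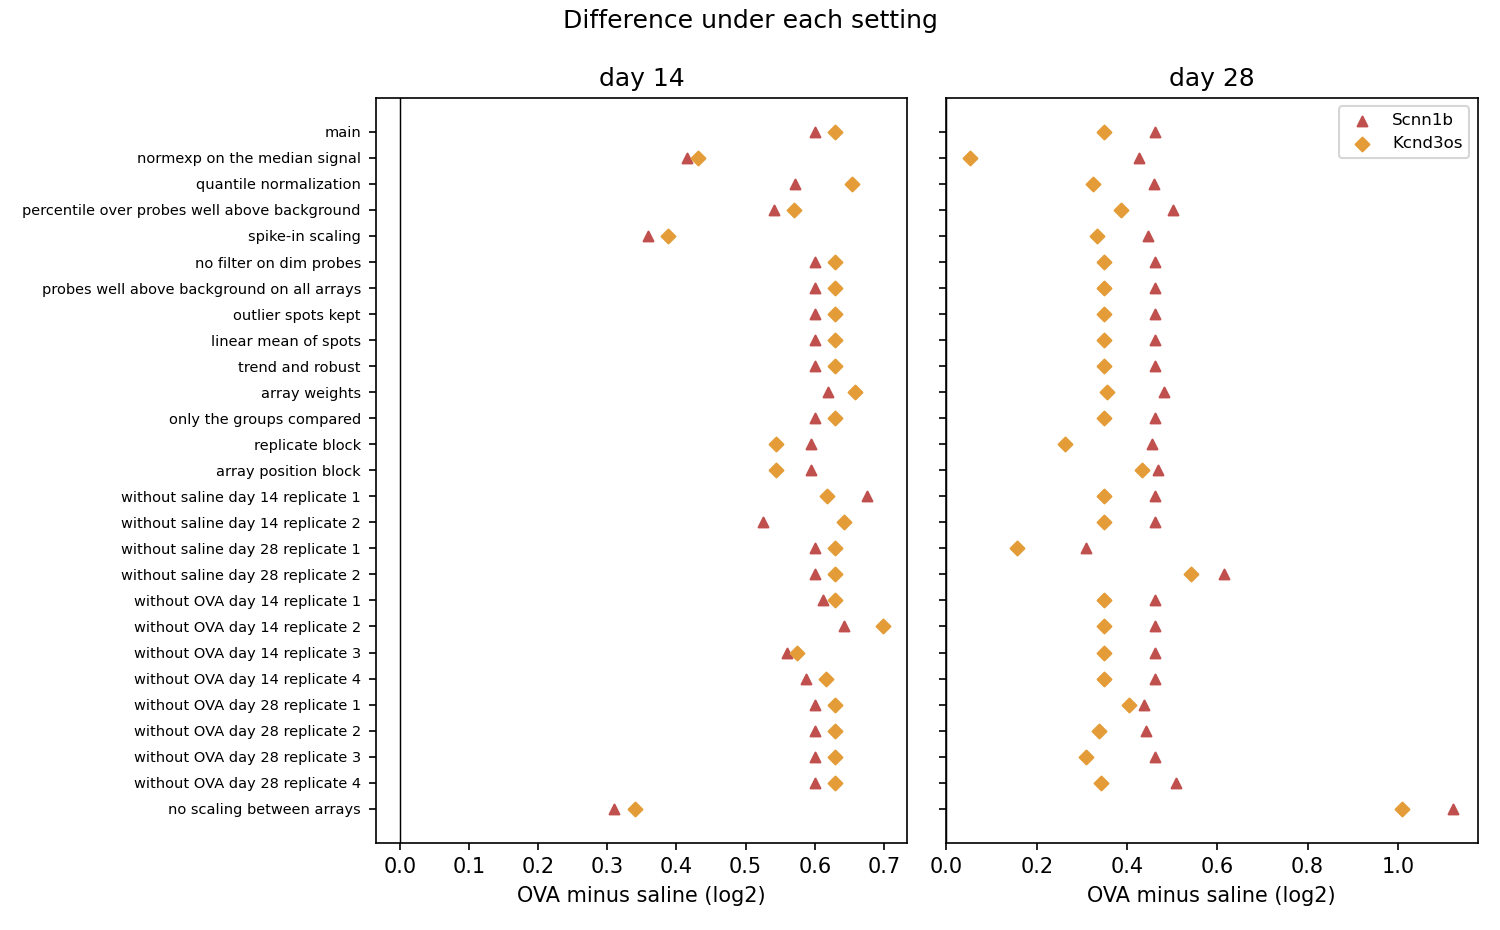
Difference between OVA and saline spleens (log2) of Scnn1b (triangles) and Kcnd3os (diamonds) at day 14 (left) and day 28 (right) under each processing alternative. Every point lies above 0, and filters, the variance model and leaving out arrays of the other day leave the value as it was. The lowest is Kcnd3os at day 28 with normexp correction (0.05) and the highest are both genes at day 28 without scaling between arrays (1.12 and 1.01).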

How the data were processed

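Total RNA was labelled with Cy3 and hybridised to 12 single-colour Agilent arrays, per the labels' protocols. The deposited scanner files hold the intensity of each spot (linear scale), and per the file headers Feature Extraction 11.5.1.1 wrote them, while the submitters' processing notes give its version as 9.1. Spot flags are other columns of the same files. A deposited value table gives log2 values of 39027 probes. It differs from the scanner values by 1 constant per array (0.0828 to 0.139) of unstated rule, its column medians lie between -0.959 and -0.874, and it holds neither gene's probe, so it was not used further.

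From 175906 non-control spots, those with the outlier flag (8 to 1248 per array) were left out, processed signal was set on a log2 scale, the array's 75th percentile was subtracted and spots of a probe were averaged. RefSeq probes were named through a GRCm38.p6 table (4658 of 13019), and the probe of highest mean stood for a gene. Tested were the 72515 of 97095 features that had 1 or more groups with every array well above background. Both genes were well above background on all 12 arrays.

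All arrays entered 1 limma 3.58.1 model (R 4.3.3) of 4 groups with 8 residual degrees of freedom, eBayes and Benjamini-Hochberg adjustment over all tested features, with a threshold of 0.05. The fit was also run on simulated data with independent normal noise and no difference between slides. That run cannot speak to slide effects in these arrays, and nothing here rests on it. The number of arrays, above all 2 saline arrays per day, limits the precision. Alternatives changed background correction, scaling, filters, variance model, blocks and arrays. Normexp (offset 50) used the median signal, as the files read here give no mean signal column. The members, the lists and the rules were chosen with earlier results of these data known. Named besides both genes were list transcripts past the threshold, transcripts within 300 kb and the 4 nearest profiles of each gene, where predicted genes (Gm, LOC) and clone or Rik names were not considered.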

Additional observations from a re-analysis of the deposited data

How the results depend on the processing

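The OVA differences of Scnn1b and Kcnd3os stayed positive on both days under all 26 alternatives of each, and Kcnd3os at day 28 passed the threshold under none of the 25 with a test. Many of these cannot move the value: filters, the handling of outlier spots, the variance model and leaving out arrays of the other day. Both genes were also picked for a positive day 14 difference, so the number of positive signs is no support. The day 14 values moved by more than 1 SD of replicates under normexp (0.41 Scnn1b, 0.43 Kcnd3os), spike-in scaling (0.36, 0.39) and no scaling, an alternative chosen after seeing the data (0.31, 0.34; at day 28 1.12, 1.01). Leaving out 1 array gave 0.53 to 0.67 for Scnn1b and 0.57 to 0.70 for Kcnd3os at day 14, and at day 28 0.31 to 0.62 and 0.16 to 0.54, the ends of both day 28 ranges being the saline day 28 arrays. The probe choice could not be varied: Scnn1b has 1 probe, and the clone probe of Kcnd3os was not well above background on any array.

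Features called at day 14 numbered 44, and 260 under normexp, 146 under quantile normalization, 12 with the percentile over well measured probes, 443 under spike-in scaling, 2 without a filter, 231 with probes well above background on all arrays, 208 with trend and robust, 0 with weights per array, 0 when fitted on the compared groups alone, 0 with the replicate block and 2 with array position as a block. Without 1 array they were 5 to 1983, the highest without the second saline array of day 14. Of the 44, 90.9% were higher in OVA, against 7.22% of the 443, 30.7% of the 1983 and 64.9% without the first saline array of day 14. At day 28 10265 were called (53.0% higher), and 27651 under normexp (22.9% higher), 6494 under spike-in scaling, 6009 without a filter, 6833 with the replicate block and 4260 with the position block. Without 1 array they were 2057 to 12490, with 3515 (63.4% higher) without the first and 2057 (78.2% higher) without the second saline array of day 28. Of the ion channel list 4 were called at day 28, and 18 under normexp, 2 under spike-in scaling and 2 with the position block, with 2 to 4 when 1 array was left out. At day 14 the list had 0 calls in every alternative run.

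Replicate numbers are shared by the groups. Deviations from the group means were correlated between OVA and saline arrays of a day. They gave -0.181 to 0.316 for same-numbered arrays and -0.37 to 0.37 for differently numbered ones. The deviations of the 2 saline arrays of a day mirror each other (correlation -1), so every correlation occurs with both signs. These ranges therefore cannot show whether the numbers pair samples, and the main model used no pairing. With the replicate block Scnn1b differed by 0.59 at day 14 and 0.46 at day 28, and Kcnd3os by 0.54 and 0.26 (adjusted p = 0.251 at day 28). 4933432K03Rik passed the limma threshold at day 28 under normexp (-0.50, adjusted p = 0.00613), a setting that called 27651 of 72515 features. The cause of these changes was not tested.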
